A study of Mus musculus with 45 samples.

Results

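The genes described here are the integrin subunits, the numbered classical cadherins and the numbered claudins that could be measured in mouse embryonic stem cells (ESCs), and in the embryoid bodies (EBs) formed from them, lacking Smad2, Smad3 or both. They were chosen by symbol (Itga or Itgb, Cdh with a number, Cldn with a number) and by detection, for which a probe had to reach a detection p-value below 0.01 on 3 or more of the 45 arrays. Of 70 such symbols with a probe on the array 26 met the rule, out of 9666 genes tested in all. These were 7 of 17 integrin alpha subunits, 4 of 10 integrin beta subunits, 4 of 23 cadherins and 11 of 20 claudins. The other 44 were not detected often enough and are not described. All values come from Illumina bead arrays of the type MouseWG-6 v2.0.

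There were 4 genotypes, given throughout as Smad2/3 DKO (both genes inactivated), Smad2 KO, Smad3 KO and WT, each at 3 stages. Undifferentiated ESCs of a 129 background were grown without feeder cells in serum and LIF. EBs were formed from them in hanging drops without LIF and collected on day 2 (d2) or, after further culture in suspension, on day 3 (d3). Each of the 12 groups held 4 arrays, except that the 3 knockout ESC groups held 3. Each array of a group came from another clone or line, the 4 WT arrays of a stage being the lines CCE, CCB, CCH and CCF. All Smad3 KO clones were made from CCE by targeting the Smad3 promoter. All Smad2/3 DKO clones were made in the same way from a single Smad2 KO clone, KT15. Clones of these genotypes therefore share a parent. The p-values measure the spread between such clones, not between independently made knockout lines. Every Smad2 KO and Smad2/3 DKO array came from a KT line, and every WT and Smad3 KO array from a CC line. Line origin therefore cannot be told apart from the loss of Smad2. The number of EBs collected differed as well. It was 5000 for d3 Smad2/3 DKO and d3 Smad2 KO, 5000 or 2500 for d2 Smad2/3 DKO, 2500 for d2 Smad2 KO and 1250 for all Smad3 KO and WT EBs. Where 2 genotypes differed in this number, its part in their difference cannot be told apart from genotype. The number was equal for Smad3 KO and WT, and for Smad2/3 DKO and Smad2 KO at d3.

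Integrins are heterodimers of an alpha and a beta subunit that join the extracellular matrix to the actin cytoskeleton through focal adhesion proteins such as talin, paxillin and the kindlins. Classical cadherins hold neighbouring cells together at adherens junctions and are tied to actin by catenins, while claudins form the sealing strands of tight junctions and rest on the zonula occludens scaffold proteins. At gastrulation Nodal signals, which Smad2 and Smad3 carry to the nucleus, accompany the change of epiblast epithelium into mesoderm, in which E-cadherin is exchanged for other cadherins and repressors of the Snail, Zeb and Twist families come on.

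Signal is given on a log2 scale after background correction and quantile normalization, from the brightest probe of a gene. A probe's level says nothing about the level of another gene, so values are compared between arrays for 1 gene at a time. Called genes are those whose adjusted p was below 0.05 in limma, with Benjamini-Hochberg adjustment over all 16896 tested probes. Median raw signal was 111 to 243 per array, and 11338 to 14256 probes were detected. Libraries that stood against their label numbered 4. Smad3, whose transcript should be missing from Smad3 KO and Smad2/3 DKO cells, was detected in ESC Smad3 KO replicate 4 and in d2 Smad2/3 DKO replicate 4 and was not detected in d2 Smad2 KO replicate 4. On the first principal component of all tested probes (34.2% of the variance) replicate 4 of both the d2 and the d3 Smad2 KO group fell among the ESCs, whereas replicate 4 of the Smad3 KO ESCs fell among the EBs. Results are given with all libraries as labelled, and counts are repeated without these 4. The state of Smad2 itself was not checked by a probe here.

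Of the 26 members 10 were detected in every array, 12 in 11 to 44 arrays and 4 in 3 to 10 arrays. Over the 12 groups 17 of 26 members (65.4%) differed by an F-test in limma, against 58.1% of all genes tested. Without the 4 libraries 19 did so, and the share of all genes was not counted for that fit. The widest gap between the lowest and the highest group mean was that of Cldn4 (4.36 on the log2 scale), followed by Cldn3 (3.47), Itgb7 (3.31) and Itga3 (2.86). The lowest group of Cldn3 (Smad2/3 DKO ESCs) and that of Itgb7 (WT d3 EBs) held no array in which the probe was detected. With each undetected value raised to the lowest signal among detected probes of its array, called the floor from here on, the gap was 2.64 for Itgb4, 2.43 for Cldn3 and 2.01 for Itgb7, while those of Cldn4 and Itga3 did not change. Both bounds of the Cldn4 and the Itga3 range lay in d3 EBs, with WT at the bottom and Smad2/3 DKO at the top. The narrowest gaps belonged to Cldn9 (0.39), Itgav (0.58) and Itgb1 (0.61).

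The largest difference between genotypes was found among claudins in d3 EBs. In Smad2/3 DKO d3 EBs Cldn4, Cldn3 and Cldn23 were higher than in WT, the laminin receptor subunits Itga3 and Itgb4 were higher, P-cadherin (Cdh3) was higher and R-cadherin (Cdh4) was lower. That made 7 of 26 members called (26.9%, with 6 higher and 1 lower), against a background of 17% of all genes, 9.5% higher and 7.51% lower. Among the called members Cldn23 met the detection rule only through Smad2/3 DKO arrays, 4 at d3 and 1 at d2. It is a member because of the group tested here, so its call adds no support to the count. The median member changed by 0.18 and the median gene by -0.03 on the log2 scale. Without the 4 libraries, of which only Smad2 KO replicate 4 is a d3 array and enters this fit through the estimate of the spread, 8 members were called against a background of 23.2%. These are bulk samples, in which a larger share of cells of a type and more RNA per cell cannot be told apart.

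Cldn4, a barrier-forming claudin of simple epithelia, gave 12.97, 13.28, 13.37 and 13.29 in the 4 Smad2/3 DKO d3 arrays, against 9.55, 8.87, 9.34 and 7.71 in the 4 WT d3 arrays. The groups were far apart, with the lowest Smad2/3 DKO array well above the highest WT array. The difference was 4.36 ± 0.40 (SE) on the log2 scale, 20.5-fold (limma, adjusted p = 6.28e-06). Cldn3, a close relative of Cldn4 with a similar place in epithelial barriers, gave 9.20, 9.54, 9.82 and 8.91 in Smad2/3 DKO d3 EBs and 5.57, 7.59, 6.26 and 6.46 in WT d3 EBs. It was detected in 4 of 4 Smad2/3 DKO arrays and in 1 of 4 WT arrays, and the groups did not overlap. The fitted change was 2.90 ± 0.36 (SE, adjusted p = 8.83e-05), and with the 3 undetected WT values at the floor it was 2.43, or 5.39-fold.

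Cldn4 and Cldn3 are neighbours. On mouse chromosome 5 (GRCm38.p6) Cldn4 lies at chr5:134945123-134946934 on the minus strand and Cldn3 at chr5:134986214-134987476 on the plus strand, 39279 bases apart, with 0 annotated genes between them. Because they and Itga3 moved furthest among the members in Smad2/3 DKO against WT d3 EBs, the 250 bases before their RefSeq transcript starts are shown, each 5′ to 3′ on the strand of the gene, with E-boxes (CAGGTG or CACCTG, the letters bound by Snail and Zeb repressors) in capitals. The windows are chr5:134946935-134947184 on the minus strand, chr5:134985964-134986213 on the plus strand and chr11:95076715-95076964 on the minus strand.
Cldn4: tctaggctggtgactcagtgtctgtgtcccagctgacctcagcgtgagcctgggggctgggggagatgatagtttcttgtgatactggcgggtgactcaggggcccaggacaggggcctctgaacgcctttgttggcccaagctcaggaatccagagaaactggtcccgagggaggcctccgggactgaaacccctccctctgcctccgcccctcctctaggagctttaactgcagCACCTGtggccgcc
Cldn3: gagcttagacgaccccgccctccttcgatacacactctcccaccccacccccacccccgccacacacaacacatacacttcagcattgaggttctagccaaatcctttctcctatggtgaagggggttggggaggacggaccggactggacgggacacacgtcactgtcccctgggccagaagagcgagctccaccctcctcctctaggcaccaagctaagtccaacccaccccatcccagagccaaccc
Itga3: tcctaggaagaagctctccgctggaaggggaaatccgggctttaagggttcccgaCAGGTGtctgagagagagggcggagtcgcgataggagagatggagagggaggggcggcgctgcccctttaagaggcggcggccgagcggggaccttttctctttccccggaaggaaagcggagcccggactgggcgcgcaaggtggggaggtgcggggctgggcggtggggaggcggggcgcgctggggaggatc

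The E-box of Cldn4 begins 14 bases before the start of the transcript and that of Itga3 195 bases before it, while the Cldn3 window held none. A Smad element (GTCTG or CAGAC, either strand) begins 231 bases before the Cldn4 start and 190 bases before the Itga3 start, where it shares 1 base with the E-box. Itga3 has another annotated start, whose window held neither. The annotated Itga3 gene reaches to chr11:95076844, inside the printed window, so part of that window lies within the gene. The distances given for Itga3 count from the transcript start that the window precedes. Among all 32851 promoter windows of this length 17.2% held an E-box and 42.2% a Smad element. Of the 26 members 16 had a window, 21 windows in all, of which 6 (28.6%) held an E-box and 9 (42.9%) a Smad element. These are matches of letters, and no binding was measured here.

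Cldn23 was the third claudin to rise. It gave 6.84, 6.86, 6.90 and 7.54 in Smad2/3 DKO d3 EBs, all detected, and 5.04, 5.26, 5.12 and 5.40 in WT d3 EBs, none detected. The fitted difference was 1.83 ± 0.20 (SE, adjusted p = 2.65e-05). Because the WT value is only a limit, set by the floor, the change was at least 1.28-fold. Cldn6, a claudin of embryonic epithelia and of pluripotent cells, gave 13.73, 13.70, 13.64 and 13.62 in Smad2/3 DKO d3 EBs and 12.99, 13.04, 13.45 and 12.17 in WT d3 EBs. The arrays of the groups did not overlap, but the difference of 0.76 ± 0.26 (SE) was not called (adjusted p = 0.0637). It was called without the 4 libraries (adjusted p = 0.0331) and without WT replicate 3 alone (adjusted p = 0.0355). The epithelial claudin Cldn7 differed by 0.28 (not called), Cldn12 by -0.58 (adjusted p = 0.10) and Cldn10 by -0.72 (adjusted p = 0.166).

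Among integrins the subunit Itga3, which with Itgb1 forms a receptor for laminins, changed most. It gave 10.85, 11.21, 11.24 and 10.75 in Smad2/3 DKO d3 EBs, against 7.41, 8.85, 7.95 and 8.40 in WT d3 EBs. All Smad2/3 DKO arrays lay above all WT arrays, by 2.86 ± 0.32 (SE) or 7.26-fold on average (adjusted p = 3.16e-05). Itgb4, which pairs with Itga6 in the hemidesmosomes of epithelia, gave 7.93, 9.23, 9.02 and 8.96 in Smad2/3 DKO d3 EBs and 6.93, 7.93, 7.13 and 7.87 in WT d3 EBs. The lowest Smad2/3 DKO array equalled the highest WT array. The change was 1.32 ± 0.34 (SE), 2.49-fold (adjusted p = 0.0167), and it was no longer called without WT replicate 1, WT replicate 3 or Smad2/3 DKO replicate 2 (adjusted p = 0.0507 to 0.0541). A second, dimmer Itgb4 probe moved by 1.16 (adjusted p = 0.000888).

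The usual partners of these subunits were not called. Itgb1, the partner of Itga3 and of most other alpha subunits present here, gave 9.61, 10.19, 9.45 and 10.07 in Smad2/3 DKO d3 EBs and 9.60, 9.78, 9.69 and 10.53 in WT d3 EBs, a difference of -0.07 ± 0.36 (SE, adjusted p = 0.93). Itga6, the partner of Itgb4, was near the limit of detection. It gave 5.81, 6.17, 6.36 and 6.24 in Smad2/3 DKO d3 EBs, none detected, and 5.97, 6.60, 6.13 and 5.82 in WT d3 EBs, of which 1 was detected. The probe therefore carries little information on Itga6 in these cells. Itgav, a subunit of receptors for vitronectin and fibronectin, gave 7.11, 6.78, 7.27 and 7.37 in Smad2/3 DKO d3 EBs and 7.08, 7.14, 7.30 and 7.05 in WT d3 EBs, so the groups lay on top of each other. The signs of these small differences changed when single arrays were left out.

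Itga5, the alpha subunit of the main fibronectin receptor, gave 9.84, 9.49, 9.54 and 9.61 in Smad2/3 DKO d3 EBs and 9.55, 7.32, 9.18 and 8.10 in WT d3 EBs. The knockout arrays were tightly grouped at the top of a wide WT range. The difference of 1.08 ± 0.40 (SE) was not called (adjusted p = 0.0808), and it was called without WT replicate 1 (1.42, adjusted p = 0.0232) or with all 45 arrays in 1 fit (adjusted p = 0.0315). Itgb5, which pairs with Itgav in a vitronectin receptor, gave 8.96, 8.81, 9.27 and 8.16 in Smad2/3 DKO d3 EBs and 9.30, 9.23, 9.54 and 9.02 in WT d3 EBs, and was not called.

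**Figure D1:**
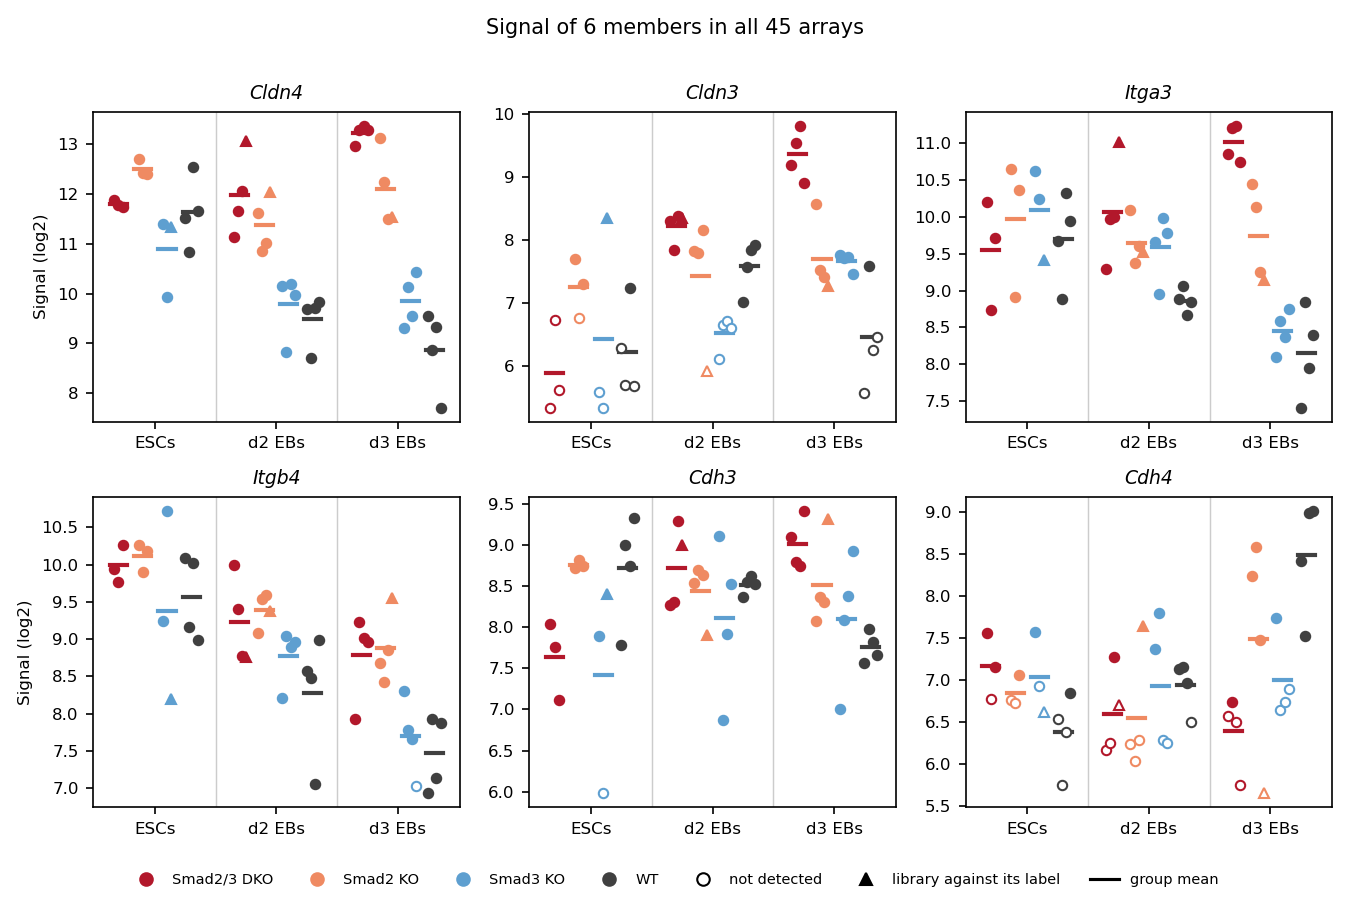
Log2 signal (y axis) of Cldn4, Cldn3, Itga3, Itgb4, Cdh3 and Cdh4 in all 45 arrays, by stage (x axis) and genotype (colour), with a point for each array and a bar for each group mean. In d3 EBs the Smad2/3 DKO arrays of Cldn4 lie between 12.97 and 13.37 and the WT arrays between 7.71 and 9.55, and open points mark arrays in which the probe was not detected.

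Of the cadherins Cdh3, which encodes P-cadherin and marks extra-embryonic and placental epithelium among other tissues, gave 9.09, 8.79, 8.74 and 9.41 in Smad2/3 DKO d3 EBs, against 7.56, 7.98, 7.82 and 7.66 in WT d3 EBs. The groups did not overlap, and the change was 1.25 ± 0.34 (SE), 2.38-fold (adjusted p = 0.0208). The call was lost without WT replicate 1 or 4 or Smad2/3 DKO replicate 1 or 4 (adjusted p = 0.0518 to 0.0631), and a second Cdh3 probe moved by 1.17 (adjusted p = 0.0161). Cdh4, or R-cadherin, a cadherin best known from the developing nervous system and kidney, moved the other way. It gave 6.57, 6.74, 6.50 and 5.75 in Smad2/3 DKO d3 EBs, where 1 of 4 arrays was detected, and 8.42, 7.52, 8.99 and 9.01 in WT d3 EBs, where all were. The difference was -2.09 ± 0.52 (SE, adjusted p = 0.0126), or -1.76 with undetected values at the floor.

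The cadherins most often used to follow the epithelial to mesenchymal change were not called. Cdh1, which encodes E-cadherin, gave 9.86, 10.90, 10.53 and 9.14 in Smad2/3 DKO d3 EBs and 9.55, 9.97, 10.08 and 9.48 in WT d3 EBs. The groups overlapped throughout and differed by 0.33 ± 0.35 (SE, adjusted p = 0.575). A second Cdh1 probe of lower signal disagreed, being higher by 1.00 in Smad2/3 DKO d3 EBs (adjusted p = 0.0142), so the arrays do not settle whether Cdh1 changed. Cdh2, which encodes N-cadherin, gave 6.48, 6.73, 6.45 and 6.57 in Smad2/3 DKO d3 EBs and 6.55, 6.56, 6.59 and 6.93 in WT d3 EBs. Only 1 array of each group was detected, so no change of Cdh2 could be seen at this signal.

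Fewer members were called in the single knockouts at d3. In Smad2 KO d3 EBs 3 of 26 members (11.5%) were called, all higher than in WT, against a background of 3.03%. They were Cldn4, Itga3 and Itgb4. Cldn4 gave 13.12, 12.24, 11.49 and 11.53 in Smad2 KO d3 EBs, above all 4 WT values listed before, with a difference of 3.23 ± 0.40 (SE), 9.36-fold (adjusted p = 0.000841). Itga3 gave 10.45, 10.13, 9.25 and 9.15 in Smad2 KO d3 EBs, again above all WT arrays, with a difference of 1.6 ± 0.32 (SE), 3.02-fold (adjusted p = 0.0155). Itgb4 gave 8.68, 8.43, 8.85 and 9.55 in Smad2 KO d3 EBs, and differed from WT by 1.41 ± 0.34 (SE, adjusted p = 0.0429).

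Replicate 4 of these Smad2 KO EBs is a library that lay among the ESCs, and it carried the highest Itgb4 and Cdh3 values of its group and the lowest Cdh4 value. Without it and the other doubted libraries, where the background was 3.27%, Cldn4 (3.41, adjusted p = 0.000457) and Itga3 (1.79, adjusted p = 0.0069) were called and Itgb4 was not (1.19, adjusted p = 0.0874). Cldn23 also passed the test (adjusted p = 0.0381), but its probe was detected in 0 arrays of either group, so no difference was measured. Itgb4 also lost its call without Smad2 KO replicate 1 or 3 or WT replicate 1, 3 or 4 (adjusted p = 0.068 to 0.123), and with the replicate number as a block (adjusted p = 0.069). Itga3 lost it without WT replicate 3 (adjusted p = 0.0551) or Smad2 KO replicate 1 (adjusted p = 0.052). Cldn3 gave 8.58, 7.53, 7.42 and 7.27 in Smad2 KO d3 EBs, and its difference from WT of 1.23 ± 0.36 (SE) was not called (adjusted p = 0.0929). The number of calls ranged from 1 to 5 when each array of either group was left out in turn.

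Smad3 KO d3 EBs had 1 called member (3.85%), against a background of 1.31%. It was Itga9, which with Itgb1 binds tenascin and other matrix proteins. It gave 6.20, 5.71, 5.47 and 5.07 in Smad3 KO d3 EBs, none detected, and 7.35, 6.84, 7.70 and 7.60 in WT d3 EBs, all detected. The fitted difference was -1.76 ± 0.29 (SE, adjusted p = 0.02), which corresponds to a signal at least 1.43-fold lower in Smad3 KO. The call was lost without WT replicate 1, 3 or 4 or Smad3 KO replicate 3 or 4 (adjusted p = 0.0548 to 0.104). Cldn4 gave 9.32, 10.13, 9.55 and 10.43 in Smad3 KO d3 EBs, a difference from WT of 0.99 ± 0.40 (SE, adjusted p = 0.189) whose groups overlapped. Cldn3 was detected in all 4 Smad3 KO arrays, at 7.77, 7.72, 7.74 and 7.46, and Itga3 gave 8.10, 8.59, 8.37 and 8.75, neither of them called against WT.

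With the 4 libraries left out, none of them a Smad3 KO or WT d3 array, 3 members were called, against a background of 6.34%. Itga9 stayed on the list (adjusted p = 0.0111), Cdh4 was lower by -1.48 on the log2 scale (SE 0.36, against 0.52 with all libraries, adjusted p = 0.0302) and Cldn5, known as the claudin of endothelial barriers, was higher by 1.27 or at least 1.57-fold (adjusted p = 0.0499). Cdh4 gave 7.74, 6.64, 6.74 and 6.89 in Smad3 KO d3 EBs, with 1 of 4 detected. Cldn5 gave 6.31, 7.57, 7.76 and 7.71 in Smad3 KO d3 EBs and 5.79, 6.34, 6.00 and 6.16 in WT d3 EBs, where none was detected. Of 7 listed endothelial markers Tie1 and Emcn were detected in 0 arrays, Cdh5 in 1 and Cd34 in 2. Pecam1, Tek and Eng were detected in 23, 38 and 42 of the 45 arrays. With all libraries, 0 of these 3 were called in Smad3 KO against WT d3 EBs.

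Since every Smad2/3 DKO clone was derived from a Smad2 KO clone, the comparison of Smad2/3 DKO with Smad2 KO is the one nearest to the loss of Smad3 in cells already without Smad2. Only replicate 2 of the Smad2 KO d3 arrays is the parent clone KT15, the others being KT17, KT11 and KT12. Differences between KT clones are therefore mixed with the loss of Smad3. At d3 it called 3 members (11.5%), against a background of 4.83%. Cldn3 was higher in Smad2/3 DKO than in Smad2 KO by 1.67 ± 0.36 (SE, adjusted p = 0.016), Cldn23 by 1.21 ± 0.20 or at least 1.32-fold (adjusted p = 0.00252) and Itga3 by 1.26 ± 0.32 (adjusted p = 0.0356). Cldn23 was detected in no Smad2 KO d3 array, at 6.23, 5.91, 5.80 and 5.34. It is a member only through Smad2/3 DKO arrays, so its call adds no support to the count. For Cldn4 the difference of 1.13 ± 0.40 (SE) was not called (adjusted p = 0.133), and the highest Smad2 KO array (13.12) lay inside the Smad2/3 DKO range. Without the 4 libraries (background 7.47%) Cldn3 and Cldn23 were still called, Cdh4 was called as lower in Smad2/3 DKO (-1.71, adjusted p = 0.0139) and Itga3 was not called (1.07, adjusted p = 0.0645). Itga3 also lost its call without Smad2 KO replicate 3 or any 1 of the 4 Smad2/3 DKO arrays (adjusted p = 0.0504 to 0.097), and Cldn3 without Smad2/3 DKO replicate 3 (adjusted p = 0.0528).

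Set against Smad3 KO, Smad2 KO d3 EBs had 4 called members (15.4%), against a background of 12.1%. Cldn4 was higher in Smad2 KO by 2.24 ± 0.40 (SE, adjusted p = 0.00307), Itga3 by 1.30 ± 0.32 (adjusted p = 0.0178) and Itgb4 by 1.19 ± 0.34 (adjusted p = 0.0366). Cldn1, a claudin of the skin barrier, gave 6.13, 6.21, 6.08 and 5.69 in Smad2 KO d3 EBs, none detected, and 6.74, 6.37, 6.97 and 7.04 in Smad3 KO d3 EBs, of which 2 were detected. It was lower in Smad2 KO by -0.76 ± 0.23 (SE) on the log2 scale, at least 1.11-fold (adjusted p = 0.0425). Without the 4 libraries (background 14%) Cldn4 and Itga3 were called, as was Cldn23, which was detected in 0 arrays of either group and so gives no measured difference, while Cldn1 and Itgb4 were not (adjusted p = 0.0866 and 0.0804). Leaving out single arrays left 1 to 3 members called. Cldn1 lost its call without any 1 of 7 of the 8 arrays, the exception being Smad3 KO replicate 2, Itgb4 without Smad2 KO replicate 1, 3 or 4 or Smad3 KO replicate 2, 3 or 4, and Itga3 without Smad2 KO replicate 1 or 2.

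Whether the double knockout differed from the sum of both single knockouts was tested at d3 as Smad2/3 DKO minus Smad2 KO minus Smad3 KO plus WT. For 1 member (3.85%, background 1.16%) it did. This was Itga9, which gave 7.71, 7.24, 7.08 and 6.61 in Smad2/3 DKO d3 EBs and 6.40, 6.75, 5.74 and 6.19 in Smad2 KO d3 EBs, beside the Smad3 KO and WT values given before, and the fitted departure was 2.65 ± 0.41 (SE, adjusted p = 0.00592). Itga9 was detected in 3 of 4 Smad2/3 DKO, 1 of 4 Smad2 KO, 0 of 4 Smad3 KO and 4 of 4 WT arrays, and with undetected values at the floor the departure was 1.01, so its size was not measured. The Smad2/3 DKO arrays overlapped those of WT. For Cldn4, Cldn3 and Itga3, the members that rose most, no departure was called. Without the 4 libraries Itga9, Cldn23 (adjusted p = 0.0472) and Cldn5 (adjusted p = 0.0255) were called. The share of all genes called in that fit was not counted, so the larger number is not read as a result about the members. Of the 4 groups, Cldn23 was detected in Smad2/3 DKO alone and Cldn5 in 0 of 4 WT arrays, so no size is given.

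At d2, a day earlier, Cldn4 was the only member called in Smad2/3 DKO EBs (3.85%, background 2.41%), although 8 of 26 had an unadjusted p under 0.05, as did 14.4% of all genes. It gave 11.14, 11.65, 12.06 and 13.06 in Smad2/3 DKO d2 EBs, against 9.69, 8.70, 9.72 and 9.83 in WT d2 EBs. All Smad2/3 DKO arrays lay above all WT arrays, by 2.49 ± 0.42 (SE) or 5.63-fold (adjusted p = 0.00475). The highest value belonged to replicate 4, in which Smad3 was detected, and without the 4 libraries the difference was 2.13 (adjusted p = 0.00481, background 4.62%). Itga3 gave 9.30, 9.97, 10.00 and 11.02 in Smad2/3 DKO d2 EBs and 8.88, 9.06, 8.67 and 8.84 in WT d2 EBs. These groups did not overlap, yet the difference of 1.21 ± 0.30 (SE) was not called (adjusted p = 0.0523). The highest Itga3 value, 11.02, again belonged to replicate 4. Cldn3 gave 8.31, 7.85, 8.38 and 8.35 in Smad2/3 DKO d2 EBs and 7.02, 7.58, 7.85 and 7.93 in WT d2 EBs, a difference of 0.62 ± 0.38 (SE, adjusted p = 0.537). Between 1 and 4 members were called when single arrays were left out.

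In Smad2 KO d2 EBs no member was called with all libraries as labelled (background 0.559%), and 5 of 26 had an unadjusted p under 0.05, as did 12% of all genes. Cldn4 gave 11.61, 10.86, 11.01 and 12.04 in Smad2 KO d2 EBs, all above WT, and its difference of 1.89 ± 0.42 (SE) had an adjusted p of 0.0589. Without the 4 libraries it was 1.67 and was called (adjusted p = 0.0432, background 1.57%). In that group replicate 4, which lay among the ESCs and lacked Smad3 signal, gave 5.92 for Cldn3, against 7.79 to 8.17 in the other 3 arrays, and 11.25 for Cldn6, against 13.28 to 13.58. No member was called in Smad3 KO d2 EBs (background 0.0207%) or between Smad2/3 DKO and Smad2 KO d2 EBs (background 0.0103%). At an unadjusted p under 0.05 there were 7 members in the first of these comparisons, beside 8.92% of all genes, and 1 in the second, beside 4% of all genes. Without the 4 libraries no member was called in either comparison (background 0.362% and 0.0931%).

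Between Smad2 KO and Smad3 KO d2 EBs no member was called with all libraries (background 2.3%), with 2 at an unadjusted p under 0.05 beside 16.7% of all genes, and 3 were called without the 4 libraries (background 8.04%), all of them claudins. Cldn3, which was detected in 0 of 4 Smad3 KO d2 arrays (6.11, 6.66, 6.72 and 6.61), was higher in Smad2 KO by 1.40 or at least 1.86-fold (adjusted p = 0.00296). Cldn4, at 10.15, 8.82, 10.20 and 9.97 in Smad3 KO d2 EBs, was higher in Smad2 KO by 1.37, and Cldn6 by 0.95.

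In undifferentiated ESCs no member was called in any knockout, with or without the doubted libraries. The background was 0% for Smad2/3 DKO, 0% for Smad2 KO and 0% for Smad3 KO with all libraries, and 0.0517%, 0.031% and 0% for these genotypes without the 4 libraries. At an unadjusted p under 0.05 there was 1 member in Smad2/3 DKO, 2 in Smad2 KO and 2 in Smad3 KO, beside 3.33%, 7.9% and 6.23% of all genes. Cldn4 gave 11.87, 11.77 and 11.74 in Smad2/3 DKO ESCs, 12.70, 12.42 and 12.39 in Smad2 KO ESCs and 11.40, 9.93 and 11.33 in Smad3 KO ESCs, against 11.51, 10.84, 12.54 and 11.66 in WT ESCs. The gap seen in EBs was not seen in ESCs. Itga3 gave 10.21, 8.74 and 9.71 in Smad2/3 DKO ESCs and 9.68, 8.88, 10.32 and 9.94 in WT ESCs, with complete overlap. Itga5 gave 9.33, 9.46 and 9.61 in Smad2/3 DKO ESCs and 8.74, 8.43, 9.03 and 8.82 in WT ESCs, which did not overlap but was not called.

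**Figure D2:**
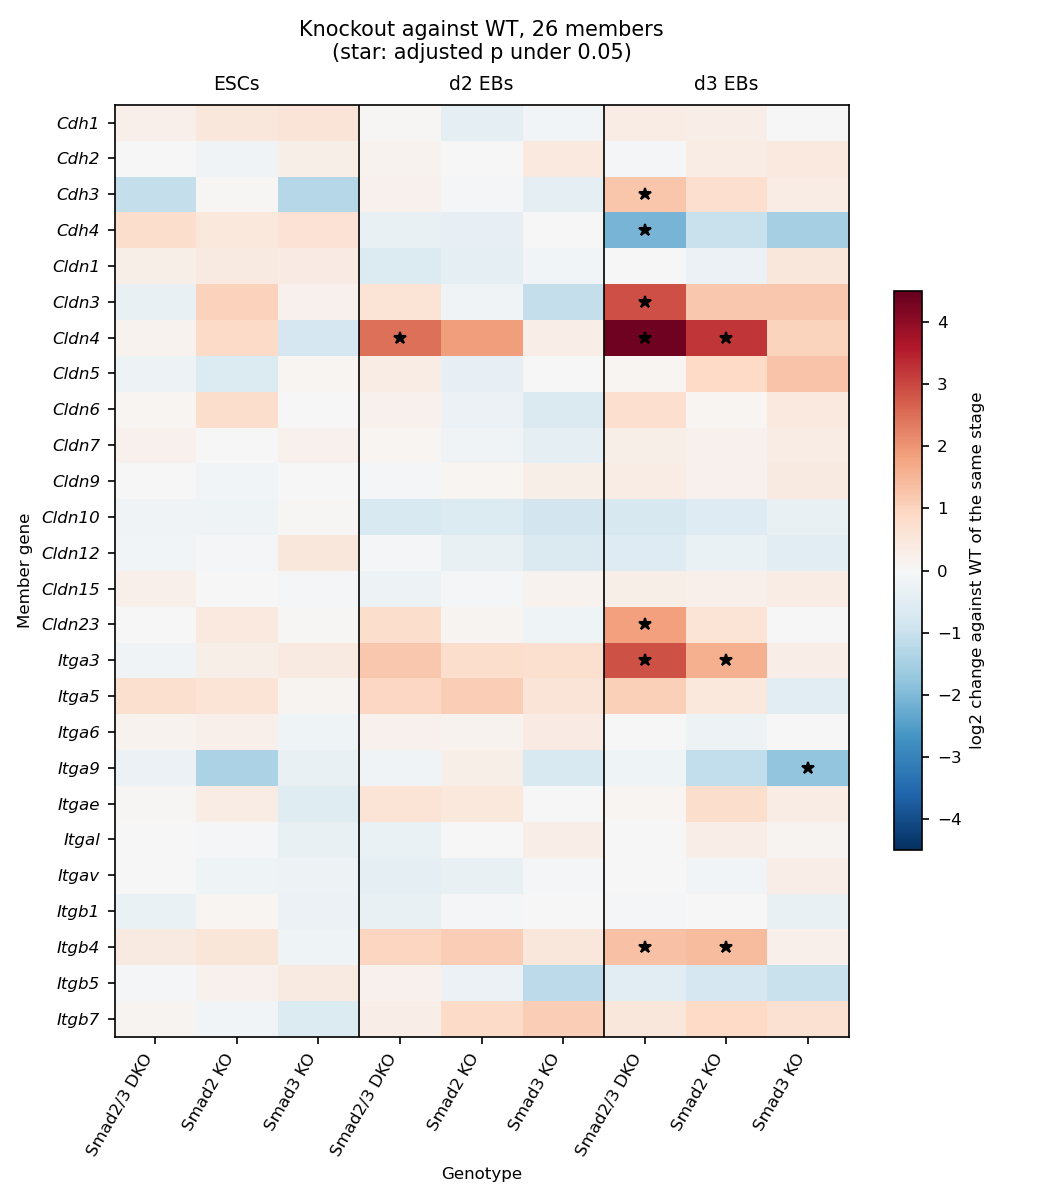
Log2 change of each of the 26 members (rows) in Smad2/3 DKO, Smad2 KO and Smad3 KO against WT of the same stage (columns), in red where higher and blue where lower in the knockout, with a star where the adjusted p is under 0.05. Colours show fitted changes, also for members detected in no array of a group. No star falls in ESCs, 1 falls in d2 EBs (Cldn4 in Smad2/3 DKO) and the other 11 fall in d3 EBs.

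The course in WT cells shows what these differences were set against. Of 26 members 12 (46.2%) were called between WT d2 EBs and WT ESCs, 7 higher and 5 lower, against a background of 28.4% (14.5% higher and 14% lower). Between WT d3 EBs and WT ESCs 10 (38.5%) were called, 4 higher and 6 lower, against 35.1% (18.7% higher and 16.4% lower). From d2 to d3 3 members (11.5%) were called, against 5.95%. The first step was unsteady. Its count was 6 without ESC WT replicate 1 and 5 without d2 WT replicate 3, and the calls of Cdh1, Cldn3, Cldn6, Cldn10, Cldn12, Itga5 and Itgb4 were each lost without at least 1 of the 8 arrays (adjusted p = 0.0502 to 0.0896). Those of Cldn1, Cldn4, Cldn5, Itga9 and Itgb7 held whichever array was left out.

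Cldn4 fell in WT cells. It was lower in d2 EBs than in ESCs by -2.15 ± 0.43 (SE, adjusted p = 0.00245) and in d3 EBs by -2.77 ± 0.43 (adjusted p = 0.000294), with all d3 and all d2 arrays below all ESC arrays. Itga3 was lower in WT d3 EBs than in WT ESCs by -1.55 ± 0.32 (SE, adjusted p = 0.00229), and Cdh3 by -0.96 ± 0.26 (adjusted p = 0.0133). The Cdh3 call was lost with median scaling (-0.62, adjusted p = 0.122) and with 1 fit of all 45 arrays (adjusted p = 0.0783). Itgb4 gave 8.57, 8.48, 7.06 and 8.99 in WT d2 EBs and 10.09, 9.17, 10.02 and 8.99 in WT ESCs. It was lower at d2 by -1.29 ± 0.40 (adjusted p = 0.0304) and at d3 by -2.10 ± 0.40 (adjusted p = 0.00144). These 4 genes, which fell in WT cells, are 4 of the 6 that were higher in Smad2/3 DKO than in WT d3 EBs. Both comparisons use the same WT d3 arrays, so this overlap is partly built in. The mean of Itgb4 also fell between ESCs and d3 EBs in Smad2/3 DKO, by -1.21 on the log2 scale.

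Cdh4 rose in WT cells, giving 6.53, 5.75, 6.38 and 6.85 in ESCs, 7.13, 7.15, 6.96 and 6.50 in d2 EBs and 8.42, 7.52, 8.99 and 9.01 in d3 EBs. It was higher in d3 EBs than in d2 EBs by 1.54 ± 0.32 (SE, adjusted p = 0.0198) and than in ESCs, where 1 of 4 arrays was detected, by 2.10 ± 0.32 (adjusted p = 0.000293), or by 1.63 with undetected values at the floor. The first of these calls was lost without d2 WT replicate 3 or 4 or d3 WT replicate 1, 3 or 4 (adjusted p = 0.0516 to 0.0737). Itgb5 gave 7.48, 8.25, 7.36 and 8.08 in WT ESCs, 7.61, 8.44, 9.27 and 9.41 in WT d2 EBs and 9.30, 9.23, 9.54 and 9.02 in WT d3 EBs. It was higher in d3 EBs than in ESCs by 1.48 ± 0.35 (adjusted p = 0.00544). Cldn12 was higher than in ESCs by 0.86 in both d2 and d3 EBs, and Cdh1 by 0.96 ± 0.29 in d2 EBs (adjusted p = 0.0283).

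Cldn5 was detected at a single stage in WT cells. It gave 6.67, 6.86, 5.24 and 5.94 in WT ESCs, 7.63, 8.54, 7.70 and 7.67 in WT d2 EBs and 5.79, 6.34, 6.00 and 6.16 in WT d3 EBs, and only the d2 arrays were detected. It was at least 2.07-fold higher in d2 EBs than in ESCs (adjusted p = 0.00189) and at least 2.30-fold lower in d3 EBs than in d2 EBs (adjusted p = 0.011). Itga9 took the opposite path, with 8.14, 8.0, 7.43 and 7.32 in WT ESCs and 5.68, 6.10, 5.40 and 6.22, none detected, in WT d2 EBs, before the d3 values given above. It was at least 1.94-fold lower in d2 EBs than in ESCs (adjusted p = 0.000177) and at least 1.52-fold higher in d3 than in d2 EBs (adjusted p = 0.00948). The claudins Cldn3 (1.37 ± 0.42, adjusted p = 0.0281, or 0.66 with undetected values at the floor), Cldn6 (1.23 ± 0.38, adjusted p = 0.0303) and Cldn1 (at least 1.03-fold, adjusted p = 0.00355) were higher in d2 EBs than in ESCs. Cldn10 was called as higher at d2 and at d3, but only 3 of all 45 arrays detected it and no fold can be given. Itga5 was lower in d2 EBs than in ESCs by -1.27 ± 0.38 (adjusted p = 0.0265), at 7.82, 7.40, 7.48 and 7.25 against 8.74, 8.43, 9.03 and 8.82.

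Of the subunits best known from white blood cells, Itgb7 and Itgal were lower in WT d3 EBs than in WT ESCs, and Itgae was not called (-0.62, adjusted p = 0.134). Itgb7, which pairs with Itga4 or Itgae on lymphocytes, gave 9.25, 9.08, 8.58 and 7.38 in WT ESCs, 6.37, 6.21, 6.02 and 6.18 in WT d2 EBs and 5.38, 5.29, 5.43 and 5.43 in WT d3 EBs. It was detected in all ESC arrays and in none of the EB arrays, and was at least 3.49-fold lower in d2 EBs than in ESCs (adjusted p = 0.000134) and at least 3.71-fold lower in d3 EBs (adjusted p = 7.98e-06). Itgal, the alpha subunit of a lymphocyte receptor for Icam1, gave 6.88, 6.47, 6.70 and 6.94 in WT d3 EBs and 7.33, 7.72, 7.46 and 7.26 in WT ESCs. It was not called at d2 (-0.40, adjusted p = 0.184) and was lower in d3 EBs by -0.69 ± 0.21 (SE, adjusted p = 0.0234), a call lost without ESC WT replicate 2 or d3 WT replicate 2 or 3 (adjusted p = 0.0567 to 0.0653). The call of Cldn10 at d3 was lost without any 1 of the 4 ESC arrays or d3 WT replicate 2 or 4. Of the 8 blood markers listed, Ptprc, Cd52, Cd53, Tyrobp and Fcer1g were detected in 0 arrays. Of the 3 that were measured 1, Laptm5, fell by 6.54 on the log2 scale in WT d3 EBs relative to WT ESCs. No other of the 3 was called, and their median change was 0.35. The summed linear signal of these 3 was 152 to 313 in WT d3 EBs and 5500 to 11100 in WT ESCs. Only 1 of them was detected in any WT ESC array, so this sum is largely that of 1 gene. The part of blood cells in the integrin values was not tested.

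Itgb7 also stood out in the libraries that lay on the wrong side for their stage. It gave 8.66 in d3 Smad2 KO replicate 4, against 5.36 to 5.62 in the other 3 arrays of that group, and 8.83 in d2 Smad2 KO replicate 4, against 6.04 to 6.78. In ESC Smad3 KO replicate 4 it gave 5.60, against 9.31 and 8.96 in the other 2 arrays.

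Whether the stage change itself differed between Smad2/3 DKO and WT was tested as an interaction on all 45 arrays. For the step from ESCs to d3 EBs 6 of 26 members (23.1%) were called, against a background of 3.96%. Without the 4 libraries 6 were called as well, and the background was not counted for that fit. The difference in change was 4.20 ± 0.62 (SE) for Cldn4 (adjusted p = 5.01e-05), 3.23 ± 0.71 for Cldn3 (adjusted p = 0.0056), 3.02 ± 0.55 for Itga3 (adjusted p = 0.000901) and 2.33 ± 0.61 for Cdh3 (adjusted p = 0.0235). It was -2.87 ± 0.65 for Cdh4 (adjusted p = 0.00722). With undetected values at the floor it was 2.34 for Cldn3 and -2.19 for Cdh4. Cldn23 was called too (adjusted p = 0.00192), but it was detected in Smad2/3 DKO d3 EBs alone among the 4 groups, so the size of this difference was not measured. With undetected values at the floor Cldn23 changed by 0.01 in Smad2/3 DKO and by -0.15 in WT. It is a member only through Smad2/3 DKO arrays, so its call adds no support to the count. The d3 arrays of both groups are the ones used above, so these calls and those between genotypes at d3 rest on shared data.

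In terms of group means, with Cdh4 detected in part of the arrays, the directions were opposite for 4 of these genes. Cldn4 changed by 1.44 between Smad2/3 DKO ESCs and d3 EBs and by -2.77 in WT, Itga3 by 1.46 in Smad2/3 DKO and -1.56 in WT, Cdh3 by 1.37 in Smad2/3 DKO and -0.96 in WT, and Cdh4 by -0.77 in Smad2/3 DKO and 2.10 in WT. Cldn3 was detected in 0 of 3 Smad2/3 DKO ESC arrays and 4 of 4 Smad2/3 DKO d3 arrays, which differed by 2.34 with the ESC values at the floor, and in 1 of 4 arrays of WT at either stage. Cdh3 gave 8.04, 7.76 and 7.12 in Smad2/3 DKO ESCs and 7.78, 9.0, 8.74 and 9.33 in WT ESCs, and its interaction was lost without ESC Smad2/3 DKO replicate 4, ESC WT replicate 4 or d3 Smad2/3 DKO replicate 4 (adjusted p = 0.052 to 0.0957). That interaction was also lost with median scaling (adjusted p = 0.0696) and without a filter on dim probes (adjusted p = 0.053). For the step from ESCs to d2 EBs no member was called (background 0.228%), and 5 had an unadjusted p under 0.05, as did 6.99% of all genes.

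**Figure D3:**
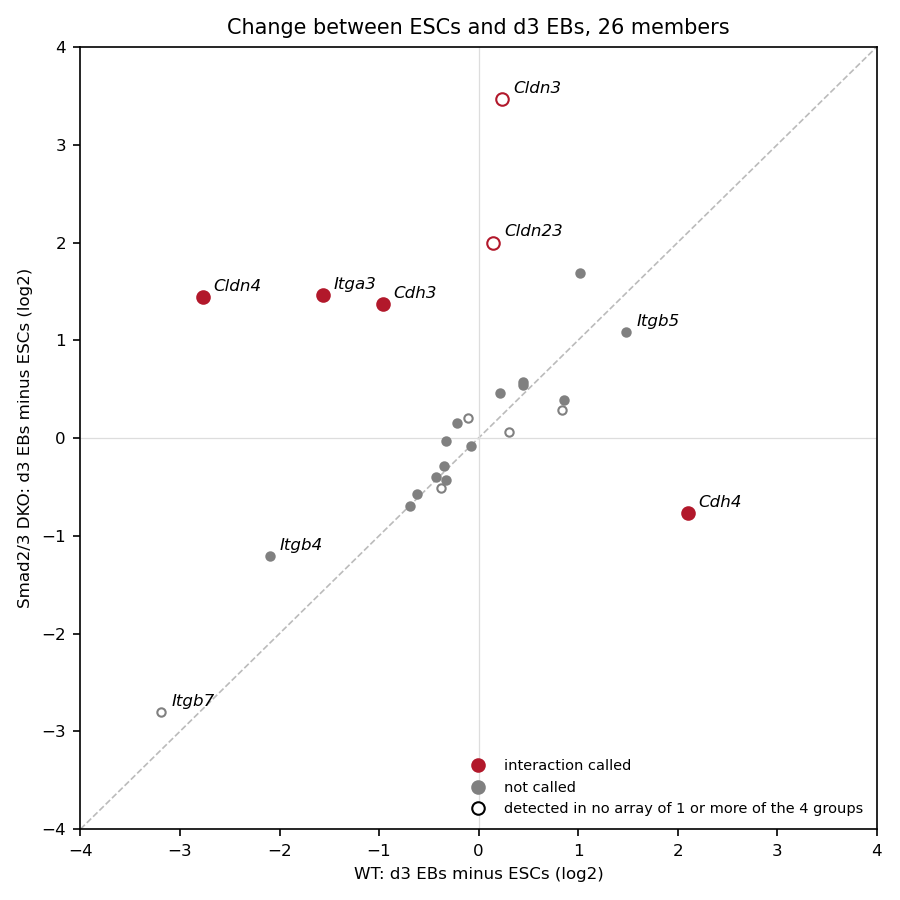
Change of the group mean between ESCs and d3 EBs on the log2 scale for each of the 26 members, in WT (x axis) and in Smad2/3 DKO (y axis), with the dashed line marking equal change. Open points mark members detected in no array of at least 1 of the 4 groups, whose place is a fitted value. The 6 members called in the interaction test (red) lie off the line, Cldn4 at -2.77 in WT and 1.44 in Smad2/3 DKO, while Itgb7, at a lower fitted mean at d3 in both, lies close to it.

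Of other members that are commonly followed in these cells, Cdh1 was detected in all 45 arrays and its 12 group means lay between 9.32 in WT ESCs and 10.32 in Smad2/3 DKO d2 EBs. It gave 9.37, 9.57 and 9.67 in Smad2/3 DKO ESCs and 8.68, 9.67, 9.41 and 9.52 in WT ESCs, and 10.33, 9.26, 10.75 and 10.96 in Smad2/3 DKO d2 EBs and 9.42, 10.32, 10.71 and 10.64 in WT d2 EBs. Neither pair of groups separated. The F-test over the 12 groups did not call Cdh1, Cdh2, Cldn7, Cldn9, Cldn15, Itga6, Itgae, Itgav or Itgb1. Cldn7 gave 8.55, 8.95, 8.32 and 7.91 in Smad2/3 DKO d3 EBs and 7.91, 8.59, 8.12 and 7.99 in WT d3 EBs. Itgae, whose product binds E-cadherin on lymphocytes, was detected in 41 arrays and its group means ran from 7.03 in WT d3 EBs to 8.29 in Smad2/3 DKO d2 EBs.

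**Figure D4:**
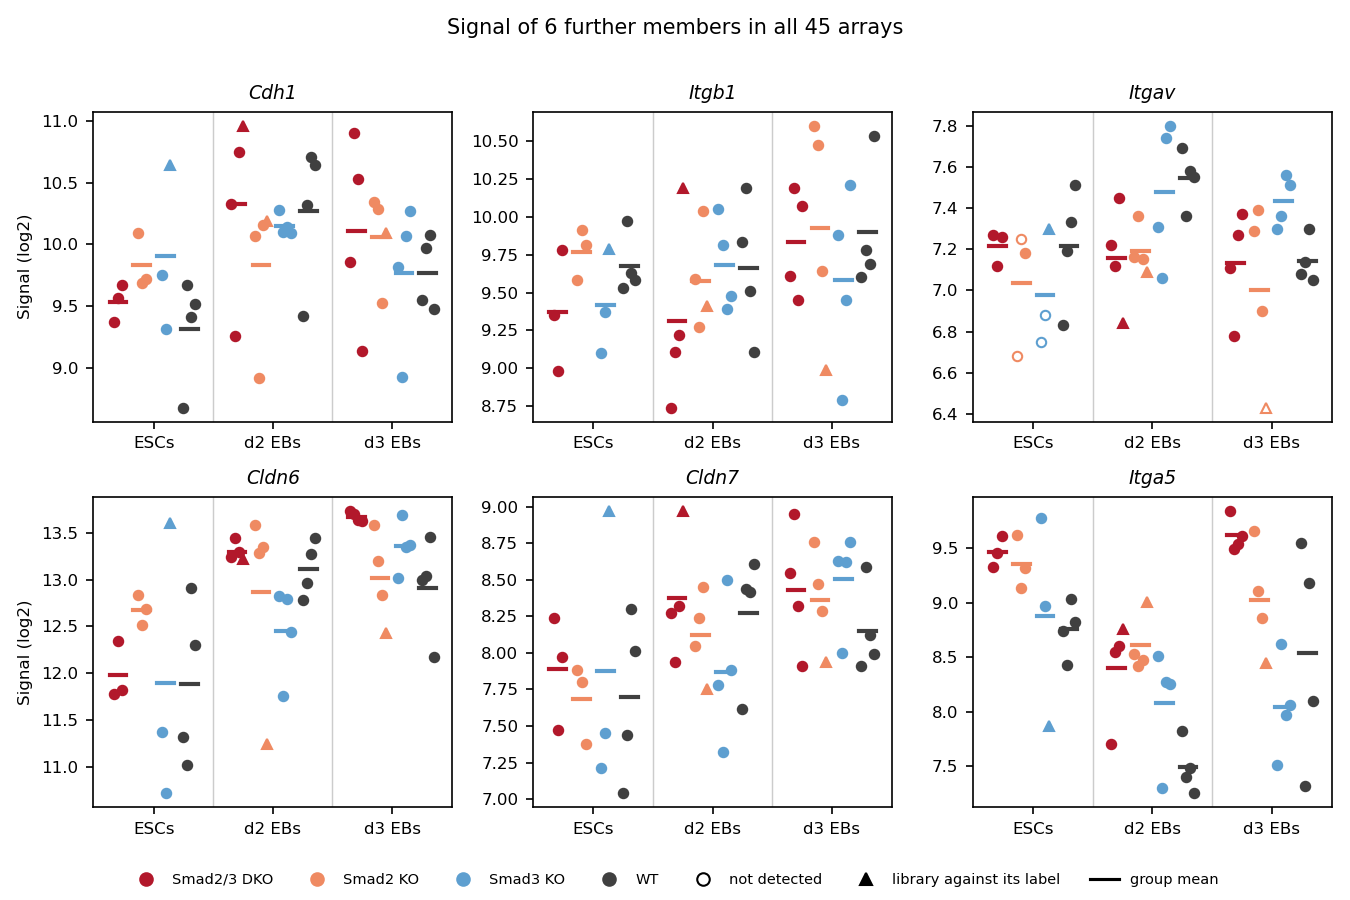
Log2 signal (y axis) of Cdh1, Itgb1, Itgav, Cldn6, Cldn7 and Itga5 in all 45 arrays, by stage (x axis) and genotype (colour), with a point for each array, a bar for each group mean and a triangle for each of the 4 libraries against their label. For Cdh1 the Smad2/3 DKO d3 arrays (9.14 to 10.90) span the WT d3 arrays (9.48 to 10.08), whereas the 4 Smad2/3 DKO d3 arrays of Cldn6 (13.62 to 13.73) lie above those of WT (12.17 to 13.45).

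Genes whose products act with these members were listed beside them. Among the 15 measured focal adhesion genes 5 were higher in Smad2/3 DKO than in WT d3 EBs and 0 were lower, with a median change of 0.60 over the list and -0.03 over all genes. Of all genes 9.5% were called as higher and 7.51% as lower in this comparison. The 5 genes were Lims2 (2.48), Pxn (1.15), Parva (0.89), Actn4 (0.83) and Fblim1 (0.78), which encode adaptor and actin-binding proteins of integrin adhesions. Of 9 measured integrin ligands 3 were higher and 0 lower (median 0.76), namely the basement membrane genes Nid1 (3.22) and Col4a2 (1.62) and the cell surface ligand Icam1 (2.14). Fibronectin (Fn1), the ligand of Itga5, differed by -1.41 and was not called. In Smad2 KO d3 EBs 1 focal adhesion gene (Tns3, 1.01) and 2 ligands (Nid1, 1.86, and Icam1, 1.97) were higher than in WT. There 3.03% of all genes were called in either direction.

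Fewer partners of claudins and cadherins were called. Of 10 measured tight junction genes 1, Tjp3 (1.05), was higher in Smad2/3 DKO than in WT d3 EBs and 0 were lower, with a median of 0.48. Of 9 measured catenin and adherens junction genes 1 was higher (Vezt, 0.67) and 1 lower (Ctnnbip1, -0.68), with a median of -0.02. The counts of both lists are near the shares of all genes called, 9.5% higher and 7.51% lower. Of the 5 measured transcriptional repressors of Cdh1, 3 were lower in Smad2/3 DKO than in WT d3 EBs, Twist1 (-2.55), Zeb2 (-2.17) and Zeb1 (-1.65), and 0 were higher, with a median of -1.85. Snai1 differed by -1.85 and was not called (adjusted p = 0.0784). In WT cells 4 of these 5 were higher in d3 EBs than in ESCs, Snai1 (3.52), Zeb2 (2.39), Twist1 (1.98) and Twist2 (1.92). In that comparison 18.7% of all genes were called as higher. At d2 no gene of these 5 lists was called in Smad2/3 DKO or in Smad2 KO, where 2.41% and 0.559% of all genes were called.

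Marker genes of several cell types were compared between the same groups. Of 12 listed epithelial and trophoblast markers 9 were measured, and 8 of these were higher in Smad2/3 DKO than in WT d3 EBs, with a median change of 3.38. In this comparison 9.5% of all genes were called as higher and 7.51% as lower. Epcam and Elf5 were detected in 0 arrays. The summed linear signal of the list was 32500 to 49500 in Smad2/3 DKO, 12900 to 32400 in Smad2 KO, 2080 to 3310 in Smad3 KO and 3280 to 13700 in WT d3 EBs. At d2 it was 11500 to 31700 in Smad2/3 DKO, 5180 to 12500 in Smad2 KO, 1270 to 1440 in Smad3 KO and 1600 to 2730 in WT. At that stage 6 of 9 markers were called as higher in Smad2/3 DKO than in WT, beside 2.41% of all genes called in either direction. Mean Cldn4 signal was 13.23 in Smad2/3 DKO, 12.09 in Smad2 KO, 9.86 in Smad3 KO and 8.87 in WT d3 EBs, so Smad2/3 DKO and Smad2 KO had the highest values of both, while Smad3 KO lay above WT in Cldn4 and below it in the sums. Of 8 measured primitive streak and mesoderm markers 6 were lower in Smad2/3 DKO than in WT d3 EBs and 0 higher, and their summed signal was 689 to 1240 in Smad2/3 DKO and 6270 to 31700 in WT. The part of these cell types in the changes of claudins, Itga3 and Cdh4 was not tested.

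Of 6 measured primitive and visceral endoderm markers 2 were higher and 3 lower in Smad2/3 DKO than in WT d3 EBs, and Gata4, Afp and Apoa1 were detected in 0 arrays. The shares of all genes for this and the next counts were 9.5% higher and 7.51% lower. Of 8 pluripotency markers 3 were higher and 3 lower, and Pou5f1, Nanog and Sox2 were detected in all 45 arrays. Among fibroblast markers, listed because feeder cells are fibroblasts, Col1a1, Col1a2 and Col3a1 were detected in 0 arrays. Of 2 measured fibroblast markers 1 was lower, and 1 of 3 endothelial and 1 of 3 blood markers were higher. The summed pluripotency signal was 18100 to 53100 in Smad2 KO d3 EBs, a group that holds a library lying among the ESCs, and 22600 to 27500 in WT d3 EBs.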

How the data were processed

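Arrays were read from the deposited table of raw average bead signal, a linear intensity that the authors exported with GenomeStudio 2009.2 per the submitters' processing notes. Each deposited value carries a detection p-value, which gives the fraction of negative controls that reached that signal. The authors' deposited table of background-corrected, quantile-normalized log2 values served as an alternative. Signal was background-corrected, quantile-normalized (offset 16) and log2-transformed by neqc in limma 3.58.1 (R 4.3.3), and 16896 of 45281 probes (detection p-value below 0.01 on 3 or more arrays) were tested. Of all probes 34885 carried 1 symbol, 18 several and 10378 none.

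Each stage was fitted with 4 genotype means, WT stages on the WT arrays, and the interaction and the F-test on all 45 arrays, with lmFit and eBayes. Adjusted p-values follow Benjamini and Hochberg over all tested probes of a comparison. Where a probe was detected in no array of a group, a fold is a bound against the lowest detected signal. Values with undetected arrays at that floor were added after the data were seen. Values in every array are given for Cdh1, Cdh2, Cdh3, Itga5, Itga6, Itgav, Itgb1, Itgb5, Cldn3, Cldn4, Cldn6 and Cldn7 in the comparisons that turn on them, and for up to 6 called members of largest change in each direction. Members, lists and rules were chosen with earlier results of these data known. At most 4 arrays a group limit the precision. A replicate number names the same WT line at every stage, while knockout clones recur across stages under numbers that do not always match. Among 12 pairs of the same WT line at different stages the correlation of deviations ran from -0.263 to 0.46, with 3 over 0.1. No block was used in the values given first, so tests between stages treat arrays of 1 line as independent. Alternatives tried were the authors' table, other filters, any probe of a gene, median scaling, no background correction, 1 fit of all arrays, 1 probe per gene, the threshold of the study's methods, a replicate block, the 4 libraries left out and each array left out. The fit was tested on simulated data. Promoter windows and gene positions are from RefSeq (GRCm38.p6).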

Additional observations from a re-analysis of the deposited data

Results flagged for a closer look

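Single arrays far from the other 3 of their group were found for 20 of 207 combinations of a member and a group of 4 arrays (207 groups tested, of which chance alone flags about 1 in 20). In each sentence the single array comes first and the range of the other 3 follows, on the log2 scale.

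In the groups of d2 Smad2 KO, replicate 4, a library against its label, gave 7.64 for Cdh4 (6.04 to 6.28), 5.92 for Cldn3 (7.79 to 8.17), 11.25 for Cldn6 (13.28 to 13.58) and 8.18 for Itga9 (5.14 to 5.63). Replicate 2 of that group gave 8.92 for Cdh1 (10.07 to 10.19). In d3 Smad2 KO, replicate 4, also against its label, gave 8.66 for Itgb7 (5.36 to 5.62), and replicate 1 gave 6.74 for Itgal (7.12 to 7.16). In d2 Smad2/3 DKO, replicate 4, in which Smad3 was detected, gave 6.91 for Itga9 (5.19 to 5.43), and replicate 2 gave 7.85 for Cldn3 (8.31 to 8.38). In d3 Smad2/3 DKO, replicate 4 gave 7.54 for Cldn23 (6.84 to 6.90).

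In d2 Smad3 KO, replicate 2 gave 5.76 for Cldn10 (5.29 to 5.35), 8.82 for Cldn4 (9.97 to 10.20) and 6.18 for Itgb7 (7.60 to 7.85). In d3 Smad3 KO, replicate 4 gave 7.46 for Cldn3 (7.72 to 7.77) and replicate 1 gave 6.31 for Cldn5 (7.57 to 7.76). In d2 WT, replicate 2 gave 5.53 for Cldn23 (5.18 to 5.20, none detected), 8.70 for Cldn4 (9.69 to 9.83) and 8.54 for Cldn5 (7.63 to 7.70). In d3 WT, replicate 4 gave 6.93 for Cdh2 (6.55 to 6.59) and replicate 2 gave 6.11 for Cldn1 (6.31 to 6.35, none detected).

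Differences of effect between groups were called for 7 results. The change between ESCs and d3 EBs was larger in Smad2/3 DKO than in WT by 4.20 for Cldn4, 3.23 for Cldn3, 3.02 for Itga3, 2.33 for Cdh3 and 1.84 for Cldn23, and for Cdh4 the difference was -2.87. The effect of both losses together on Itga9 in d3 EBs departed from the sum of the single effects by 2.65 in the fit and by 1.01 with undetected values at the floor. The fitted values of Cldn3, Cldn23 and Itga9 rest on groups in which the probe was detected in no array, so their size was not measured.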

How the results depend on the processing

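In Smad2/3 DKO against WT d3 EBs, 7 members were called as labelled and 6 to 7 when single arrays were left out, and the calls of Cldn4, Cldn3, Itga3, Cldn23 and Cdh4 held in every alternative tried, while those of Itgb4 and Cdh3 were lost with median scaling (adjusted p = 0.112 and 0.0688) and that of Cdh3 without a filter on dim probes (adjusted p = 0.0526). Itga6, not called, differed by 0.02 as labelled and by -0.10 with median scaling, and the sign of 3 members not called turned without single arrays (Itga6 -0.09 to 0.17, Itgav -0.09 to 0.11, Itgb1 -0.19 to 0.14). Of 220 counts of called members under alternatives other than leaving out single arrays, 186 stayed within 1.5 times of the value given first and 34 did not. The cause was not tested.

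Under the threshold of the study's methods, which asks for more than a 1.5-fold change and an unadjusted p below 0.05, the counts were 1, 2 and 2 for Smad2/3 DKO, Smad2 KO and Smad3 KO ESCs (all genes 2.4%, 5.18% and 4.2%), 7, 4 and 7 for these genotypes at d2 (all genes 10.3%, 8.09% and 5.62%), and 8 and 6 for Smad2 KO and Smad3 KO at d3 (11.7% and 13.2%). They were 1 (d2) and 6 (d3) for Smad2/3 DKO against Smad2 KO (2.3% and 13.1%), 2 (d2) and 7 (d3) for Smad2 KO against Smad3 KO (11.1% and 20.2%), 5 for the d2 interaction (6.29%), 6 for the departure from the sum of single effects (13.3%) and 9 for WT d3 against d2 EBs (14.7%). Adjustment over 1 probe per gene gave 2 for d2 Smad2/3 DKO, 1 for d2 Smad2 KO and 2 for the departure. The stricter filter gave 2 for d2 Smad2/3 DKO and 2 for the departure, and no background correction gave 2 for d2 Smad2/3 DKO. Median scaling gave 1 (d2) and 2 (d3) for Smad2 KO against Smad3 KO and 3 for d3 Smad3 KO. No filter gave 2 for Smad2 KO against Smad3 KO at d3 and 6 for WT d2 EBs against ESCs. The fit of all 45 arrays gave 1 for d2 Smad2 KO and 1 for Smad2 KO against Smad3 KO at d2. Without the libraries against their label the counts were 1 for d2 Smad2 KO, 3 for d3 Smad3 KO, 3 for Smad2 KO against Smad3 KO at d2 and 3 for the departure. For the departure the share of all genes in that setting was not counted. It was not counted either under the settings from adjustment over 1 probe per gene to the fit of all 45 arrays. Counts from those settings are therefore not read as results about the members.

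With the replicate block, d2 Smad2 KO had 1 called member and Smad2 KO against Smad3 KO 1 at d2, against 0 each without it. The block also ended the calls of Itgb4 in Smad2 KO d3 EBs against WT (adjusted p = 0.069) and Smad3 KO (adjusted p = 0.0557) and in WT d2 EBs against ESCs (adjusted p = 0.0508). It left 7 members called in Smad2/3 DKO against WT d3 EBs and 6 in the d3 interaction. The share of all genes was not counted with the block, so these counts are not read as results about the members. Of 33 pairs of equal number in WT and a knockout of 1 stage, 7 had a correlation of deviations over 0.1.

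When each array was left out in turn, the counts ranged from 1 to 4 for Smad2/3 DKO against Smad2 KO at d3 and for d2 Smad2/3 DKO, 1 to 3 for the departure, 0 to 2 (d2) and 1 to 3 (d3) for Smad2 KO against Smad3 KO, 1 to 5 for d3 Smad2 KO, 0 to 2 for d3 Smad3 KO, 5 to 13 for WT d2 EBs against ESCs, 2 to 5 for WT d3 against d2 EBs, 5 to 6 for the d3 interaction, 8 to 11 for WT d3 EBs against ESCs and 15 to 18 over the 12 groups. The share of all genes was not counted for fits with an array left out. Such counts, here and above, are therefore not read as results about the members. Members near the limit of detection (Cldn10, Cldn23, Cldn1, Itga6) have few detected arrays, and their fitted changes depend on the background correction: Cldn23 in Smad2/3 DKO against WT d3 EBs ran from 0.85 to 1.93 over the alternatives.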
